A study of Mus musculus with 6 samples.

Results

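C1qa, Cx3cr1, Aif1, Mrc1, Fcer1g and Cxcl16 are the 6 genes with a known role in microglia and macrophages among the 329 gene symbols measured in single cells of mouse hypothalamus. They were chosen by symbol and not by a cut on their values, but with earlier results of these data known. The first 4 belonged to a smaller set of 75 genes, and Fcer1g and Cxcl16 to a larger set of 265 (266 in 1 library) that shares some genes with it. The cells came from C57/Bl6 mice of genotype KLB-CRE; Ai14, with hypothalami pooled by 3 for each of 3 captures, and were sorted by fluorescence for tdTomato and for viability with Hoechst. In this cross a Cre recombinase tied to Klb, the co-receptor gene of the hormone FGF21, turns on the tdTomato reporter for good, so that the label also records past Klb expression in the lineage of a cell. All cells carried both alleles, and there was no group without them, no treatment and no sort of tdTomato-negative cells. The tissue of every capture was digested with pronase at 2 mg per ml for 30 min at 37 °C. With 2 primer panels on each capture there were 6 libraries of targeted BD Rhapsody counts, in which each unique molecular identifier (UMI) stands for 1 captured mRNA molecule.

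Microglia are the resident macrophages of the brain tissue, and other macrophages line its borders, the meninges and the perivascular space. Both survey their surroundings through receptors for complement, antibodies and chemokines. C1qa encodes a chain of C1q, the first component of the classical complement pathway, which in brain is made mainly by microglia. Cx3cr1 encodes the receptor for fractalkine, a chemokine of neurons, and Aif1 the calcium-binding protein Iba1, the common stain for microglia. Mrc1 encodes the mannose receptor CD206, used to tell border macrophages from microglia. Fcer1g encodes the FcRγ chain, an adaptor that carries the signal of several Fc receptors in myeloid cells. Cxcl16 encodes a chemokine with a membrane-bound form that also works as a scavenger receptor and that binds CXCR6.

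The 6 libraries as used held 1858 barcodes, of which 1253 were kept because they had 20 UMIs or more from 5 genes or more. The smaller set came from panel 1 of replicate 2, with 25 cells and a median of 1044 UMIs, and panel 1 of replicate 3, with 104 cells and a median of 705 UMIs. The larger set came from panel 2 of replicates 1, 2 and 3, with 44, 43 and 87 cells and medians of 115.5, 1352 and 1068 UMIs. It also came from the library labelled panel 1 of replicate 1, which went against its label by holding counts in the larger set. That library had 950 cells at a median of 51 UMIs and is given apart. Panel 1 and panel 2 of replicate 3 shared 2 cell indices and no other pair of libraries used shared any. Cells were not joined across libraries, so members of the smaller and larger sets were not compared within a cell. Another 21 barcodes stood in tables of 2 replicates and were left out. The smaller-set cells of replicate 3 were read from the table labelled panel 2 of that replicate, where they lie under the names of the smaller set, and they are called panel 1 for their gene set. The table labelled panel 1 was not used for values. In it, 102 of the 104 barcodes could be compared, and their counts of C1qa, Cx3cr1, Aif1 and Mrc1 stood under Anxa2, Avpr1b, Adrb3 and Camk2n1. By name, the mean profiles of the smaller set in the 2 captures correlated with Pearson r of 0.758 across 75 genes, which are not independent replicates. With C1qa far above every other gene in both captures, this r cannot be that of untransformed levels, and its scale is not given here. Of the 75 genes, 14 were detected in replicate 2 and 27 in replicate 3, so the r includes many genes without a UMI.

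C1qa was the most abundant gene of the smaller set in every one of its 129 cells. The 25 cells of replicate 2 had 678 to 1072 C1qa UMIs with a median of 861. The 104 cells of replicate 3 had 279 to 1181 with a median of 642. C1qa took 850 of each 1000 UMIs in replicate 2 and 927 in replicate 3, a mean of 888 ± 54.2 (SD, n = 2 captures). In single cells its level ran from 779 to 927 of 1000 UMIs in replicate 2 and from 863 to 976 in replicate 3, so that no cell of either capture was low for it. The gene with the next highest mean level in the set, the precursor marker Pdgfra, averaged 26.2 ± 31 per 1000 (SD, n = 2). Because C1qa filled most of each cell's total, all other genes of the set shared the UMIs that C1qa left. Their levels are still given per 1000 UMIs of all genes, C1qa included, unless stated. Levels of different genes here compare UMIs of different primers, not transcripts per length.

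Cx3cr1 was also found in all 25 cells of replicate 2, for which the exact Clopper-Pearson 95% interval of the share starts at 86.3%, and in all 104 cells of replicate 3, for which it starts at 96.5%. Its counts were far lower than those of C1qa. They ran from 9 to 74 UMIs a cell in replicate 2, with a median of 25, and from 2 to 62 in replicate 3, with a median of 14. Its level was 28.1 per 1000 UMIs in replicate 2 and 22.2 per 1000 in replicate 3, a mean of 25.2 ± 4.19 (SD, n = 2), and the captures overlapped cell by cell, from 9.76 to 62.2 and from 3.41 to 56.5. It ranked 3 of 75 genes by mean level, between Pdgfra and the metallothionein Mt1 at 23.4 ± 15.6 (SD, n = 2), and did not differ from either beyond their spread. Counted among the UMIs of genes other than C1qa, the order of the captures turned round, with 187 of 1000 in replicate 2 and 302 in replicate 3. There were 30.2 C1qa UMIs for each Cx3cr1 UMI in replicate 2 and 41.8 in replicate 3.

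**Figure D1:**
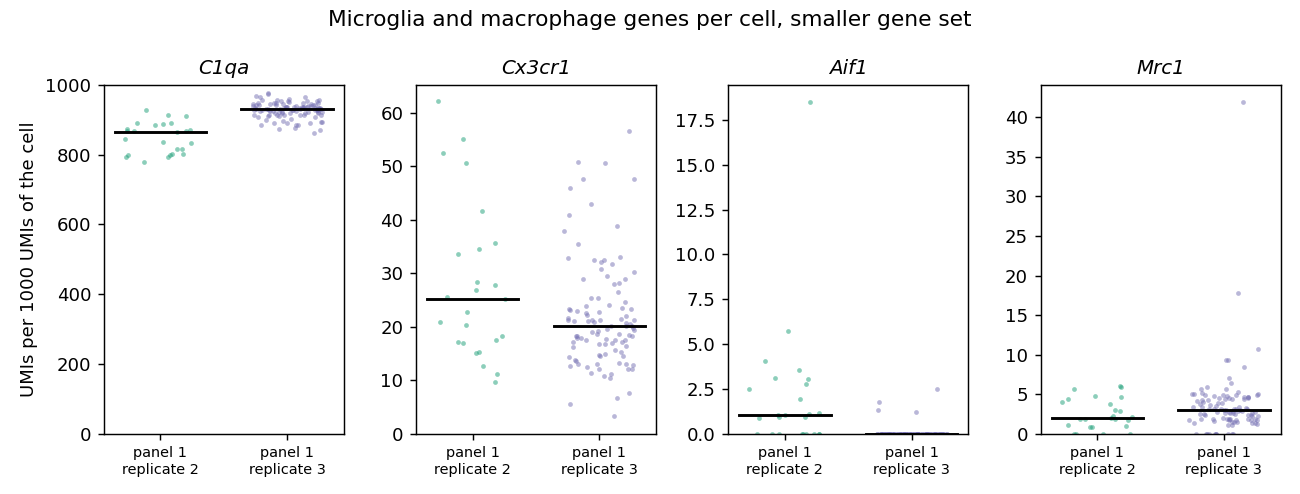
UMIs of C1qa, Cx3cr1, Aif1 and Mrc1 per 1000 UMIs of each cell (linear axes of different length) in panel 1 of replicates 2 and 3; each point is 1 of 25 or 104 cells and the line is the median over cells. C1qa lies at 779 or more in every cell, Cx3cr1 spreads over the same range in both captures, Aif1 is above 0 in 16 cells of replicate 2 and 4 of replicate 3, and 1 cell of replicate 3 stands apart at 42 for Mrc1.

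Mrc1 was in most cells of both captures at 1 or a few UMIs. Replicate 2 had it in 21 of 25 cells (84%, exact interval 63.9% to 95.5%) and replicate 3 in 94 of 104 (90.4%, exact interval 83.0% to 95.3%), a mean of 87.2% ± 4.51 (SD, n = 2). The median was 2 UMIs a cell in both captures, with up to 7 in replicate 2 and up to 16 in replicate 3. Its level was 2.46 per 1000 UMIs in replicate 2 and 3.65 in replicate 3, or 3.06 ± 0.841 (SD, n = 2). Mrc1 ranked 8 of 75 genes, below the interneuron marker Pvalb at 5.20 ± 7.30 and above the tanycyte factor Rax at 1.37 ± 1.94 (SD, n = 2 each), and all these intervals of 1 SD overlapped. There were 11.4 Cx3cr1 UMIs for each of Mrc1 in replicate 2 and 6.07 in replicate 3. Single cells ran from 0 to 6.02 per 1000 in replicate 2 and from 0 to 42 in replicate 3.

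Aif1 was the member of the smaller set whose captures stood furthest apart. Replicate 2 had it in 16 of 25 cells (64%, exact interval 42.5% to 82.0%). Replicate 3 had it in 4 of 104 cells (3.85%, exact interval 1.06% to 9.56%), and the intervals did not overlap. These are intervals of counting error within each capture, and 2 captures give no test between them. Its level was 2.16 per 1000 UMIs from 56 UMIs in replicate 2 and 0.0520 per 1000 from 4 UMIs in replicate 3, which is 41.5-fold apart. A single cell with 20 UMIs held 35.7% of the Aif1 UMIs of replicate 2, and no cell of replicate 3 had more than 1. With the cell richest in Aif1 left out of each capture, the mean of the captures was 0.743 per 1000 in place of 1.10. The mean and its SD of 1.49 (n = 2) put Aif1 at rank 12 of 75 genes, between the synaptic gene Snap25 at 1.26 ± 1.62 and Gng8 at 1.07 ± 1.51 (SD, n = 2 each), an order within the spread. Such gaps between the captures were not particular to Aif1. Snap25 was at 0.116 in replicate 2 and 2.41 in replicate 3, and Gng8 at 0 and 2.13, the opposite direction. Pvalb went the way of Aif1, at 10.4 and 0.0390 per 1000.

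The 4 genes together took 88.3% of all UMIs in replicate 2, with single cells from 81.7% to 94.2%, and 95.3% in replicate 3, with single cells from 89.8% to 98.7%. All 4 were found in 14 of 25 cells of replicate 2 and in 4 of 104 cells of replicate 3, a difference set by Aif1. Mrc1 and Aif1 were missing from some cells. C1qa and Cx3cr1 were in every cell, so their detection did not set apart a subset. The oligodendrocyte gene Mag was in all 129 cells as well, at 10.3 per 1000 UMIs in replicate 2 and 9.18 in replicate 3, while Mobp, the other measured gene of its list, was in 0 of 25 and 65 of 104 cells. Of the precursor list, Pdgfra was in 25 of 25 and 98 of 104 cells, and Olig1, the other gene measured, was in 1 of 25 and 60 of 104. The ependymal list, 3 genes measured, reached 12.4 per 1000 in replicate 2, all of it Rarres2, and 5.14 in replicate 3, of which Rarres2 gave 4.92 and Foxj1 0.221. Ccdc153 was at 0 in both. The neuronal list, 4 genes measured, was found in 12% of the cells of replicate 2 and 84.6% of those of replicate 3, at 0.116 and 2.80 per 1000. In replicate 2 it was Snap25 alone, and in replicate 3 Snap25 gave 2.41 and Slc17a6 0.390 per 1000. Of the astrocyte list, 2 genes were measured, and they were at 0 in replicate 2 and in 5.77% of the cells of replicate 3. The endothelial list, 1 gene measured, was at 0 in both. The label of microglia rests on what is known of the genes by symbol and was not checked in these data. No group of cells in the smaller set lacked C1qa and Cx3cr1, so there were no cells to compare.

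**Figure D2:**
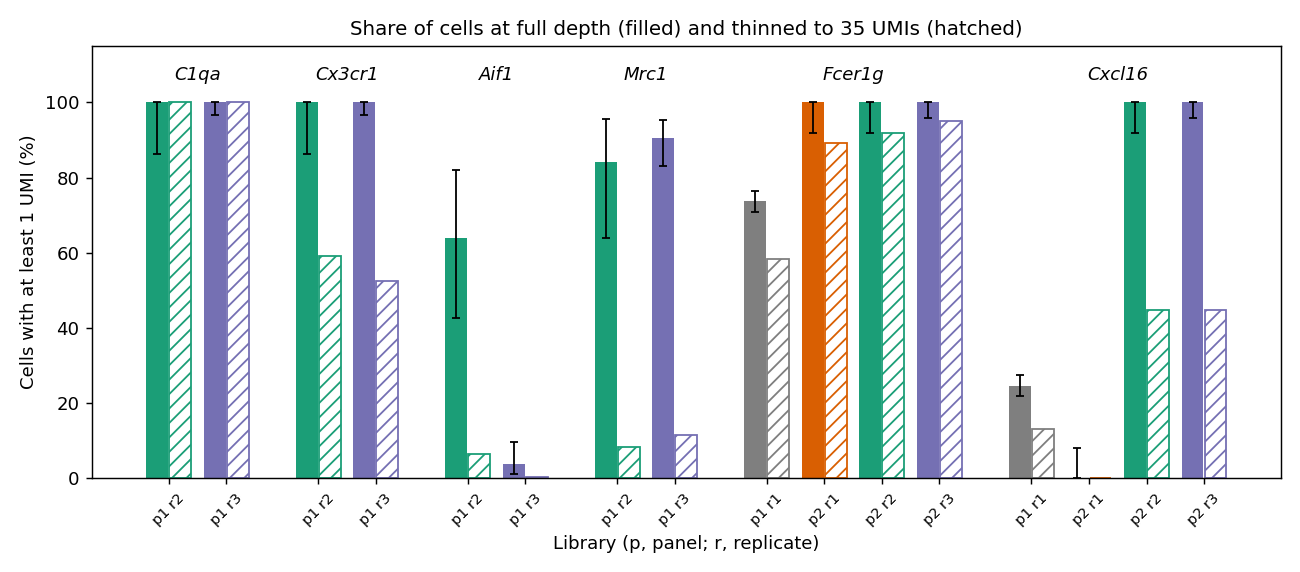
Share of cells with at least 1 UMI of each member in each library (percent, axis from 0), at full depth with exact 95% intervals (filled bars) and as the share expected after thinning each cell to 35 UMIs (hatched bars, no interval). At full depth C1qa, Cx3cr1 and, in panel 2, Fcer1g are in every cell, and at 35 UMIs Cx3cr1 is at 59.1% and 52.5% and Mrc1 at 8.35% and 11.6% of cells.

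Depth entered the shares strongly. With each cell thinned to 35 UMIs, the share expected to keep a UMI stayed at 100% for C1qa and was 59.1% in replicate 2 and 52.5% in replicate 3 for Cx3cr1. For Mrc1 it was 8.35% and 11.6%, and for Aif1 6.49% and 0.231%. In the cells with a neuronal marker of replicate 3, 88 cells at a median of 742.5 UMIs, C1qa had 925 per 1000 UMIs, against 936 in the 16 cells without one at a median of 561. Cx3cr1 had 22.7 per 1000 in the cells with a neuronal marker and 18.4 in those without. Mrc1 was in 89.8% of the cells with a neuronal marker and 93.75% of those without, at 3.46 and 5.03 per 1000. In replicate 3, C1qa, Cx3cr1 and Mrc1 were thus at levels of the same order in cells with a neuronal transcript and in cells without. Aif1 was in 4 of these 88 cells with a marker and in 0 of the 16 without. In replicate 2 it was at 0.647 per 1000 in the 3 cells with a marker and 2.36 in the 22 without. The cells with a marker were deeper in replicate 3, and the split does not sort cells by type. The shares are therefore not read as expression by 1 cell type. The part of transcripts from other cells in these values was not tested.

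Cx3cr1 was then compared between cells with and without a UMI of a macrophage gene or of Snap25, as a level per 1000 UMIs of all genes other than the splitting one. In replicate 2 it was 24.8 per 1000 in the 21 cells with Mrc1 and 45.3 in the 4 cells without, a log2 ratio of -0.87. In replicate 3 it was 22.4 in the 94 cells with Mrc1 and 20.9 in the 10 without, a log2 ratio of 0.098. The direction differed between captures, and the mean log2 ratio of -0.38 ± 0.68 (SD, n = 2) gave p = 1 in an exact two-sided sign-flip test, whose smallest p with 2 captures is 0.5. Split by Aif1, Cx3cr1 was at 26.3 with and 31.6 without in replicate 2, and at 22.7 with and 22.2 without in replicate 3. The mean log2 ratio was -0.12 ± 0.22 (SD, n = 2, exact p = 1). Split by Snap25, it was at 20.7 with and 29.1 without in replicate 2, where only 3 cells had Snap25, and at 23.1 with and 18.7 without in replicate 3, a mean of -0.091 ± 0.57 (SD, n = 2, exact p = 1). In these levels none of the 3 splits of Cx3cr1 gave the same direction in both captures. With C1qa also out of the denominator, Cx3cr1 was lower in cells with than without Mrc1 in both captures, at a mean log2 ratio of -0.55 ± 0.59, and lower in cells with than without Aif1 in both, at -0.20 ± 0.24 (SD, n = 2 and exact p = 0.5 each, the smallest 2 captures allow). The split by Mrc1 at 2 UMIs also gave 1 direction, at -0.23 ± 0.32 (SD, n = 2, exact p = 0.5), but with almost no difference in 1 of the captures. C1qa stayed within log2 ratios of -0.016 and 0.048 in the splits by Snap25. Mrc1 was at 2.59 with and 2.45 without Snap25 in replicate 2, and at 3.55 with and 4.10 without in replicate 3.

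**Figure D3:**
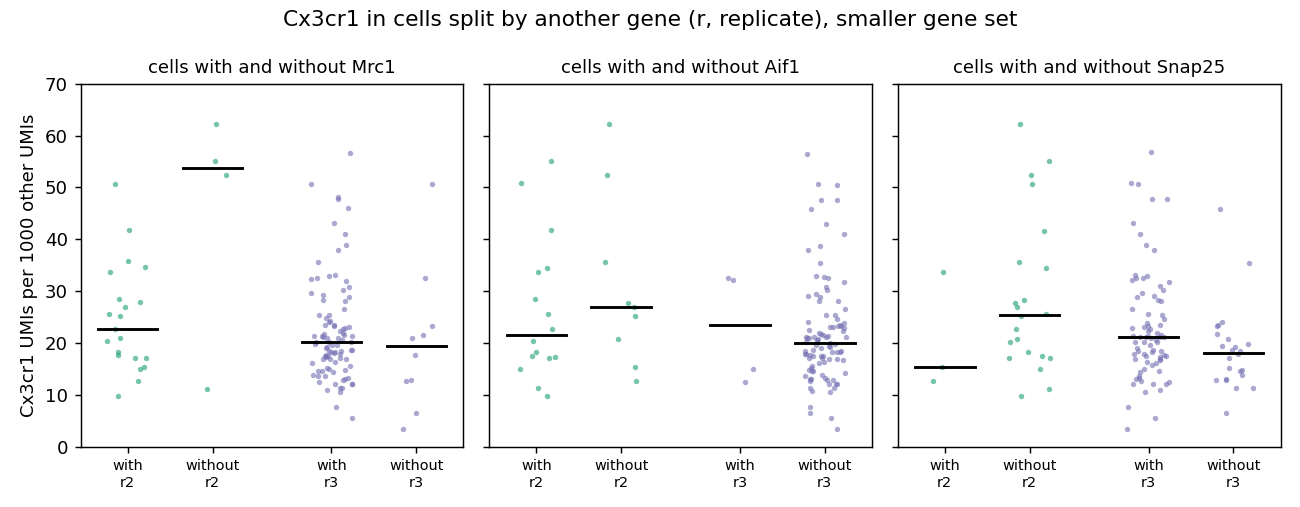
Cx3cr1 UMIs per 1000 UMIs of all genes other than the splitting gene, per cell, in cells with and without a UMI of Mrc1, Aif1 or Snap25, in panel 1 of replicate 2 (r2) and replicate 3 (r3); each point is a cell and the line is the median over cells, not the library level given in the text. In r2 the 4 cells without Mrc1 include 3 of the highest, and in r3 the cells with and without Mrc1 cover the same range.

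Across cells the members of the smaller set did not move as 1 group. As Pearson r of residuals from each cell's expected count, given as a description of 25 and 104 cells that share a library and a total, C1qa and Cx3cr1 gave -0.41 in replicate 2 and -0.62 in replicate 3. A gene that fills most of the total must fall where another rises. Cx3cr1 and Mrc1 gave -0.12 and 0.031, and with C1qa taken out of the total -0.29 and -0.22. Likeness was ranked over only 7 other genes for each of Mrc1, Cx3cr1 and C1qa and 8 for Aif1, and these included other members. Among these, the genes most like Mrc1 by mean r over both captures were Pdgfra at 0.35 and Rarres2, the chemerin gene, at 0.32. For both, only replicate 2 was far from 0 (0.57 and 0.51, against 0.12 and 0.13 in replicate 3). The nearest to Cx3cr1 were Rarres2 at 0.17, Mt1 at 0.15 and Pdgfra at 0.059, and next after them for Mrc1 came Mt1 at 0.080. For Aif1 they were Mag at 0.049, C1qa at 0.028 and Rarres2 at -0.058, and for C1qa Snap25 at -0.044, Mrc1 at -0.31 and Mag at -0.36. Such values are too weak to name a partner for Cx3cr1, Aif1 or C1qa. C1qa and Snap25 gave opposite directions, at 0.22 in replicate 2 and -0.30 in replicate 3. In replicate 3 every r of Aif1 rests on 4 UMIs of it.

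Fcer1g was the gene with the most UMIs in all 3 panel 2 libraries of the larger set and was in all of their 44, 43 and 87 cells. Replicate 1 had 1 to 570 Fcer1g UMIs a cell with a median of 7.5, replicate 2 had 28 to 412 with a median of 123, and replicate 3 had 13 to 270 with a median of 117. Scaled to depth, the library levels lay close together, at 121, 83.5 and 98.8 per 1000 UMIs in replicates 1, 2 and 3, a mean of 101 ± 18.7 (SD, n = 3) and a range of 1.45-fold. The median over cells gave another order, with 59.4, 98.0 and 106 per 1000. In replicate 1 a single cell held 41.3% and the 5 richest cells 77.3% of all Fcer1g UMIs, while the richest cell held 6.20% in replicate 2 and 2.50% in replicate 3. With the cell richest in Fcer1g left out of each library, the mean was 89.7 ± 7.97 per 1000 (SD, n = 3), and the spread between captures was smaller. Fcer1g stood above Ucp2, the mitochondrial carrier gene ranked second of 265, which averaged 61.7 ± 4.00 per 1000 (SD, n = 3), and it was the higher of the pair in each capture.

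Although it had the most UMIs of each panel 2 library, Fcer1g was the leading gene of only some cells. Replicate 1 had 6 such cells of 44 (13.6%), replicate 2 had 14 of 43 (32.6%) and replicate 3 had 58 of 87 (66.7%). Single cells ran from 12.1 to 281, from 27.5 to 197 and from 26.8 to 241 per 1000 UMIs in the same order.

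In the library labelled panel 1 of replicate 1, Fcer1g was lower and uneven. It was in 700 of 950 cells (73.7%, exact interval 70.8% to 76.5%), with 0 to 105 UMIs a cell and a median of 1, and took 26.9 per 1000 UMIs, rank 12 in that library. The median over cells was 20.8 per 1000, with quartiles of 0 and 33.3, and 250 cells had no Fcer1g UMI. The highest cell reached 481, Fcer1g led in 23 cells, and the 95 richest cells held 57.7% of its UMIs. The share of cells followed depth. With the cells divided by depth into 3 groups of like size, it was 46.1%, 77.8% and 97.2% from the shallowest group to the deepest, while the level was 22.2, 25.4 and 27.7 per 1000. At 35 UMIs a cell, which left out 306 shallower cells, the share expected was 58.2%, and it was 89.3%, 91.8% and 95.1% in panel 2 of replicates 1, 2 and 3.

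**Figure D4:**
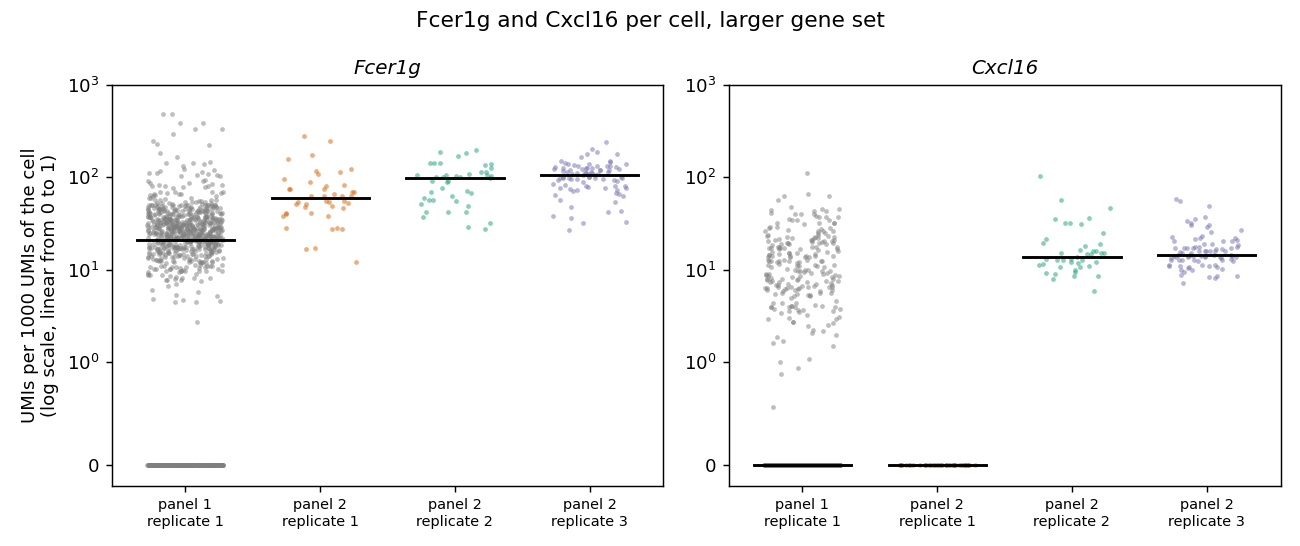
UMIs of Fcer1g and Cxcl16 per 1000 UMIs of each cell (log axis, linear from 0 to 1) in the 4 libraries of the larger set; each point is a cell and the line is the median over cells. Fcer1g is above 0 in every cell of panel 2, and Cxcl16 is at 0 in all 44 cells of panel 2 of replicate 1 and above 5 in every cell of replicates 2 and 3.

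In panel 2, every cell of replicates 2 and 3 had Cxcl16, while none of replicate 1 did. Panel 2 of replicate 2 had 7 to 219 Cxcl16 UMIs a cell with a median of 20, and panel 2 of replicate 3 had 6 to 81 with a median of 18. Their levels, 19.9 and 17.6 per 1000 UMIs, were alike, as were their medians over cells of 13.9 and 14.7. In panel 2 of replicate 1 it was found in 0 of 44 cells, which allows a share of up to 6.82% and a level of up to 0.263 per 1000, counting error only. Its levels in the other panel 2 libraries were above that limit. Panel 2 of replicate 1 detected 50 of 265 genes, against 93 of 265 in replicate 2 and 120 of 266 in replicate 3, so most of the set was at 0 there, and a part of this in the 0 of Cxcl16 was not tested. The mean of 12.5 ± 10.9 per 1000 (SD, n = 3) ranked Cxcl16 at 21 of 265, between Prrc2a at 12.5 ± 10.2 and the adrenergic receptor gene Adrb1 at 12 ± 10.4 (SD, n = 3 each), which did not differ beyond their spread. Those neighbours were also low or at 0 in replicate 1, with 0.963 per 1000 for Prrc2a and 0 for Adrb1. The 5 cells richest in each gene held 44.9% of the Cxcl16 UMIs and 27.1% of the Fcer1g UMIs of replicate 2, and the 9 richest held 28.2% of the Cxcl16 and 18.0% of the Fcer1g UMIs of replicate 3.

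The library of the same replicate labelled panel 1 did hold Cxcl16. It was found in 233 of 950 cells (24.5%, exact interval 21.8% to 27.4%) at 3.63 per 1000 UMIs, with up to 112 per 1000 in single cells. In the same 3 depth groups, from shallowest to deepest, the share was 7.57%, 19.3% and 46.7% at levels of 2.98, 3.81 and 3.66 per 1000. At 35 UMIs a cell it was 13.1%, against 44.7% and 44.6% in panel 2 of replicates 2 and 3. Cxcl16 was the only member counted by a pair of amplicons, and their balance differed between libraries. The amplicon named for a polyadenylation site gave 67.6% (exact interval 65.3% to 69.9%) and 66.1% (64% to 68.3%) of its UMIs in panel 2 of replicates 2 and 3, and 50.5% (45.4% to 55.6%) in the library labelled panel 1 of replicate 1. The rest came from the amplicon at the end of the reference transcript.

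Fcer1g and Cxcl16 were found together in all 43 cells of panel 2 of replicate 2, all 87 of replicate 3, none of replicate 1 and 206 of 950 (21.7%) of the library labelled panel 1 of replicate 1. There were 4.19 and 5.63 Fcer1g UMIs for each Cxcl16 UMI in panel 2 of replicates 2 and 3, and 7.41 in the library labelled panel 1 of replicate 1. Only in that library were there cells on both sides of a split by Cxcl16. Fcer1g was at 26.5 per 1000 UMIs in the 233 cells with Cxcl16 and 27.4 in the 717 cells without, a log2 ratio of -0.047 with a counting interval of -0.15 to 0.060. Its share was 88.4% with Cxcl16 at a median of 125 UMIs, and 68.9% without at a median of 42. Thinned to 35 UMIs, these shares were 59.8% with and 57.5% without. With 1 library there was no test, and the sign of the ratio changed with the way cells were weighted. It was 0.35 as a ratio of means over cells and 0.32 without the 5% of cells with the most UMIs.

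**Figure D5:**
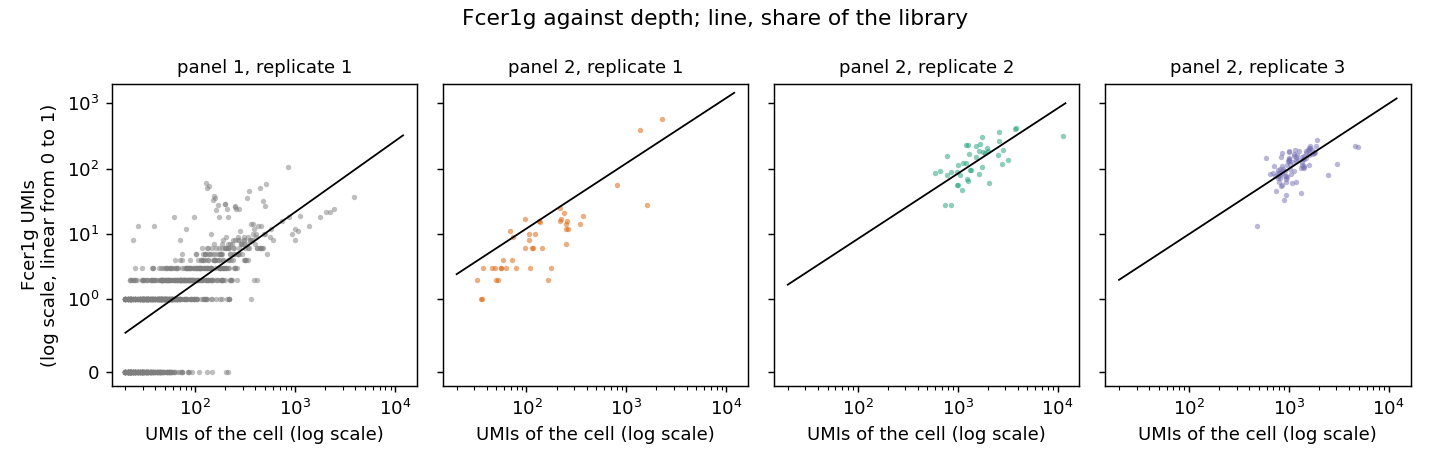
Fcer1g UMIs of each cell (log axis, linear from 0 to 1) against all UMIs of the cell (log axis) in the 4 libraries of the larger set; each point is a cell and the line is the library level, 26.9, 121, 83.5 and 98.8 per 1000 UMIs from left to right. In panel 2 of replicate 1 most cells lie below the line, which is raised by a few deep cells, and in panel 1 of replicate 1 a group of cells lies well above it.

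Both genes were present beside transcripts of other cell types. In the library labelled panel 1 of replicate 1, Fcer1g was at 23.0 per 1000 UMIs in the 257 cells with a neuronal marker, at a median of 126 UMIs, and 31.6 in the 693 cells without, at a median of 42. The shares were 87.5% with and 68.5% without a marker, and 56.8% with and 59.0% without after thinning. Cxcl16 was at 3.28 with and 4.05 without a neuronal marker, and after thinning in 9.91% of cells with and 14.9% of cells without. In panel 2 of replicate 3, Fcer1g was at 93.9 per 1000 in the 68 cells with a neuronal marker and 124 in the 19 without, and Cxcl16 at 17.6 with and 17.4 without. The marker was Gad2 alone in that library, as the other 6 measured genes of the list were at 0. In panel 2 of replicate 1 it was Stmn2 alone, and Fcer1g was at 124 per 1000 in the 42 cells with it and 14.6 in the 2 without, the opposite direction. No cell of panel 2 of replicate 2 had a neuronal marker. The oligodendrocyte list, 3 genes measured, took 95.8, 50.4 and 16.9 per 1000 UMIs in panel 2 of replicates 1, 2 and 3, and its gene Bcas1 was in every cell. Its genes Ermn and Ugt8a were in 0 of 44 cells of replicate 1, in 43 and 42 of 43 of replicate 2, and in 35 and 26 of 87 of replicate 3. The endothelial list, 3 genes measured, took 1.58, 9.82 and 7.04 per 1000, nearly all of it the glucose transporter gene Slc2a1. Slco1c1 was at 0 in all 3 libraries, and Slco1a4 was at 0 in replicates 1 and 2 and at 0.192 per 1000 in replicate 3. The part of these transcripts in the results was not tested.

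TdTomato mRNA gave a split in the same library. Fcer1g was at 23.7 per 1000 UMIs in its 281 cells with a tdTomato UMI and 31.8 in the 669 without, and Cxcl16 at 3.14 with and 4.38 without. The median depth was 131 UMIs with and 41 without, and after thinning Fcer1g was in 56.3% with and 59.5% without, and Cxcl16 in 11.8% with and 13.9% without. Nearly every cell of panel 2 of replicates 2 and 3 had a tdTomato UMI (41 of 43 and 86 of 87) and none of the 44 of replicate 1 did, so the split could not be repeated there.

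Across cells, the genes most like Fcer1g were Btg2, an antiproliferative early response gene, at a mean r of 0.29, the Rab5 exchange factor gene Rin2 at 0.28 and the corepressor gene Trim28 at 0.27, over 4 libraries and 25 genes present in at least 10% of the cells of each. All 3 were positive in each library, but weakly in some: Btg2 ran from 0.10 to 0.60, Rin2 from 0.047 to 0.48 and Trim28 from 0.15 to 0.36. The lowest of the 25 was Rarres2 at -0.37. For Cxcl16 the highest of 54 genes were Coro7 at 0.17, Adrb1 at 0.14 and Cox6a2 at 0.14 over 3 libraries, which is weak. Adrb1 ran from 0.070 to 0.22. Coro7 and Cox6a2 were high in panel 2 of replicate 2 alone, at 0.41 and 0.49. In panel 2 of replicate 3 they were at 0.038 and -0.050, and in the library labelled panel 1 of replicate 1 at 0.052 and -0.020. Fcer1g and Cxcl16 themselves gave 0.21 over 950 cells, -0.023 over 43 and 0.15 over 87. These r describe cells that share a library, a depth and a total.

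Few other immune genes were measured. Of 74 genes in lists for microglia, border macrophages, monocytes and neutrophils, lymphocytes, mast cells, Fc receptor signalling, chemokines and complement, 8 were measured, and 6 of these are the members. The microglia list had 3 of 24 genes measured and the border macrophage list 1 of 10. No gene of the monocyte and neutrophil list or of the lymphocyte list was measured, so Cxcr6, the receptor for CXCL16, has no value. Of the other 2, the chemokine gene Cxcl12 was in 0 of 44 panel 2 cells for replicate 1, which allows a share of up to 6.82%, in 1 of 43 for replicate 2 and in 70 of 87 for replicate 3. In the 950 cells labelled panel 1 of replicate 1, 220 had it. Hdc, which encodes the histamine-forming enzyme of mast cells and of hypothalamic neurons, was in 0, 30 and 0 cells of panel 2 and in 112 of the 950. Neither had the pattern of Cxcl16, which was in every panel 2 cell of replicates 2 and 3.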

How the data were processed

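The deposited tables hold UMI counts for each amplicon in each barcode, not normalized. Per the file headers they were written by BD's targeted Rhapsody pipeline, in version 1.3 for the library labelled panel 1 of replicate 1 and in version 1.5 for the others. The submitters' processing notes name the build mm9. How reads were aligned and cells called is not given in the sources. Gene sets were taken from the columns that held a barcode's counts (80 columns in the smaller set, 290 in the larger and 1 more in panel 2 of replicate 3, which measured 266 genes). Of panel 1 of replicate 2, 25 of 25 barcodes stood with identical counts in a second table and were used once.

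Amplicons of 1 symbol were summed. A barcode was kept from 20 UMIs and 5 genes upwards, which left out 605 of 1555 in panel 1 of replicate 1 and none elsewhere. Panel 1 gave 105772, 25964 and 76898 UMIs in kept cells, by replicate, and panel 2 gave 11423, 79560 and 109452. No doublets were called. Levels are UMIs of a gene over all UMIs of a library, and intervals and limits (3 counts for a count of 0) cover counting error only. Shares at 35 UMIs are exact expectations of drawing UMIs without replacement. Means and SD are over captures, each a pool of animals, and cells are not replicates. Likeness is the mean over libraries of Pearson r of residuals. Splits needed 3 cells on each side. No panel 2 library met this for Cxcl16, so that split is a value without a test, against the plan. The likeness, split and thinning steps were tested on simulated data. Python 3.11.15, numpy 2.4.6, pandas 2.3.3, scipy 1.17.1 and matplotlib 3.10.9 were used.

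The genes named are the 6 members, the 3 genes most like each, the genes next above and below each in mean level, the splitting genes and the measured genes of the immune lists, and beyond this rule single genes of the lists for other cell types and the lowest gene by likeness to Fcer1g, chosen after their values were seen. The members and lists were chosen with earlier results of these data known.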

Additional observations from a re-analysis of the deposited data

Results flagged for a closer look

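The 21 barcodes that stood in tables of 2 replicates, and so in none of the libraries above, also held members of the larger set. Fcer1g was in 20 of them (95.2%) and Cxcl16 in 18 (85.7%), above the limit that a count of 0 allows. Their levels were 29.6 and 13.1 per 1000 UMIs. A single barcode held 72.6% of the Fcer1g and 85.6% of the Cxcl16 UMIs, so the levels describe mainly that barcode. Which capture these barcodes came from cannot be told apart.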

How the results depend on the processing

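Of 133 other settings tried over 16 results, 114 were counted as unchanged, 12 gave a value further away and 7 turned the sign. Shares and levels were held against the spread between captures (1 SD). The Cx3cr1 splits were held against their sign alone, and the Fcer1g split against its sign and counting interval. Many settings could not change a label. Leaving out 1 capture of 2 or 3 cannot move a mean share or level by more than 1 SD. Dropping the barcode filter changed none of the averaged libraries, and no smaller-set cell had fewer than 100 UMIs. Thinning to 35 UMIs put the mean share of cells at 55.8% for Cx3cr1, 9.98% for Mrc1 and 92.1% for Fcer1g, and asking for 2 UMIs put it at 66.2% for Mrc1 and 98.5% for Fcer1g. With C1qa out of the total, Cx3cr1 was at 245, Mrc1 at 33.1 and Aif1 at 7.54 per 1000 UMIs. With panel 1 in place of panel 2 of replicate 1, Fcer1g was in 91.2% of cells at 69.7 per 1000, and with the barcodes in tables of 2 replicates kept it was in 99.5%. The log2 ratio of Fcer1g in cells with and without Cxcl16 was -0.22 in cells of at least 100 UMIs, 0.063 when split at 2 UMIs, 0.32 without the 5% of cells with the most UMIs and 0.35 as a mean over cells; the cause was not tested. It has no value within panel 2 or without a replicate.

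Leaving out each capture in turn gave 850 to 927 per 1000 for C1qa, 22.2 to 28.1 for Cx3cr1, 2.46 to 3.65 for Mrc1 (84% to 90.4% of cells), 0.0520 to 2.16 for Aif1 (3.85% to 64%), 91.2 to 110 for Fcer1g and 8.78 to 18.7 for Cxcl16 (50% to 100%). Aif1 fell to the lower value without replicate 2, and Cxcl16 was at the higher one without replicate 1. For Cx3cr1, the log2 ratio was 0.098 without replicate 2 and -0.87 without replicate 3 when split by Mrc1, 0.037 and -0.27 by Aif1, and 0.31 and -0.49 by Snap25, where a split at 2 UMIs also gave 0.20. Each rests on 1 capture and the cause was not tested. No paired analysis was possible because no condition was compared and the panels had the same gene set in replicate 1 alone. In panel 2 of replicate 1 and in the library labelled panel 1 of replicate 1, the low depth per cell limits what a share can show.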
